A study of Mus musculus with 24 samples.

Results

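The interferon genes described here are 47 mouse genes for interferon receptors, the transcription factors of the response, sensors of viral RNA and genes that interferon is known to switch on. They were chosen by gene symbol, with earlier results of these data known, and form 47 of the 53379 genes in the deposited tables. They were followed in 10 RNA libraries of the mouse embryonic stem cell line E14Tg2a.IV, 2 per group. The day 4 groups are embryoid bodies, aggregates in which stem cells differentiate, from cells labelled Smad2/3DKO (double knockout, DKO), Smad2-/- (Smad2 knockout), Smad3-/- (Smad3 knockout) and wild type (WT). The day 0 group is WT stem cells in the pluripotent state. The proteins SMAD2 and SMAD3 act in the nucleus as effectors of TGF-beta family ligands such as Nodal, and the design sets embryoid bodies without them against WT. The labels do not say that replicates are separate cultures, so the p-values here reflect differences among library pairs that may be technical. Both libraries of each knockout carry 1 line number, so the effect of a genotype and of its line cannot be told apart.

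Type I interferons bind a receptor made of IFNAR1 and IFNAR2, and interferon gamma binds IFNGR1 and IFNGR2. The type I signal passes through JAK kinases to a complex holding STAT2 and IRF9, which binds a DNA element called ISRE, whereas the interferon gamma signal acts through an element called GAS. IRF1, IRF3 and IRF7 also switch on many of the same genes. Pluripotent stem cells are known for a weak interferon response that grows with differentiation, while some of the response genes are active in stem cells without added interferon.

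Library totals lay between 35733249 and 53672980 expected counts. Levels are CPM, expected counts scaled to a common library size with TMM factors, and adjusted p-values are edgeR's quasi-likelihood test with Benjamini-Hochberg adjustment over 19470 genes, of which 46 are members. Ifi44 was not tested, since its counts lay in 1 Smad2 knockout library, at 0.0427 CPM. A member is called higher or lower where its adjusted p is under 0.05. Whole-gene Smad2 RNA was 22.2 and 22.7 CPM in DKO, 19.2 and 20.4 in the Smad2 knockout, 38.3 and 39.3 in the Smad3 knockout and 49.9 and 38.3 in WT day 4 libraries. Smad3 RNA was 28 and 25.7 CPM in DKO and 49.7 and 48.7 in the Smad3 knockout, against 42 and 44.9 in WT at day 4. The sources used here do not say which part of either gene was removed, so a whole-gene count does not check the genotype labels.

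Cell type markers differed between the groups. The summed level of 12 trophoblast markers was 2631 and 3220 CPM in DKO, 3140 and 2155 in the Smad2 knockout, 684 and 866 in the Smad3 knockout and 235 and 426 in WT day 4 libraries. In WT day 0 libraries it was 240 and 219 CPM. The summed level of 12 extraembryonic endoderm markers was 173 and 115 CPM in DKO, 47.8 and 46.2 in the Smad2 knockout, 528 and 526 in the Smad3 knockout and 930 and 819 in WT at day 4. In WT at day 0 it was 5.83 and 7.48 CPM. The 12 stem cell and epiblast markers summed to 1059 and 882 CPM in DKO, 1741 and 2175 in the Smad2 knockout, 1575 and 1685 in the Smad3 knockout, 2732 and 3296 in WT day 4 and 4561 and 4708 in WT day 0 libraries. The 10 blood and macrophage markers summed to 85.3 and 71.4 CPM in DKO, 49.3 and 43.3 in the Smad2 knockout, 41.6 and 46.4 in the Smad3 knockout, 17.3 and 27.6 in WT day 4 and 108 and 112 in WT day 0 libraries. Of the 5 that could be tested, 3 were called higher in DKO than in WT (Cd68, Csf1r and Laptm5) and 2 in the Smad2 knockout (Cd68 and Csf1r). Of all genes tested, 10.8% were called higher in DKO and 15.4% in the Smad2 knockout. Of the 10 markers in this list, Ptprc, Cd53, Fcgr1 and Tyrobp were at most 0.107 CPM in any library. The 6 endothelial markers summed to 96.1 and 70.4 CPM in DKO, 22 and 39.4 in the Smad2 knockout, 31.3 and 33.8 in the Smad3 knockout, 28.5 and 28.4 in WT day 4 and 77.6 and 90.4 in WT day 0 libraries. Among them the endothelial cadherin Cdh5 stood at 42.8 and 34.3 CPM in DKO, against 0.252 and 0.38 in WT at day 4, and Emcn was at most 0.0598 CPM in any library. In DKO against WT, 1 of 5 tested endothelial markers was called higher and 4 were not called (20%, against 23.1% of all genes). The 9 fibroblast or feeder markers summed to 75 and 63.3 CPM in DKO and 69.2 and 67.4 in the Smad2 knockout. They summed to 68 and 76.5 CPM in the Smad3 knockout, 53.6 and 59 in WT day 4 and 27.5 and 32 in WT day 0 libraries. In the Smad2 knockout against WT, 5 of these 9 were called higher and 3 lower (88.9%, against 35.5% of all genes). The part of these cell types in the results below was not tested, and in bulk RNA fewer cells of a type and less RNA per cell cannot be told apart.

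The interferon ligand genes followed were at the limit of detection, and of the alpha family they held only Ifna1, Ifna2, Ifna4, Ifna5 and Ifna6. Of these 11 ligand genes, 6 had no count in any library. The other 5 held 11 counts over the 10 libraries, with at most 2 in 1 library. A count of 3, the limit that a count of 0 allows, corresponds to 0.0559 to 0.084 CPM across the libraries. That range is on library totals without TMM factors, unlike the other CPM values here. Receptors were present in every group. On the length-scaled TPM scale, which allows levels of different genes to be compared, 13 members in DKO, 9 in Smad2 knockout, 14 in Smad3 knockout, 14 in WT day 4 and 8 in WT day 0 samples averaged above 10 TPM. Ifitm2 and Bst2 had the highest mean TPM of the members in every group. The best known response genes were scarce: Isg15 was at most 3.39 CPM in any library, and Ifit1, Ifit3, Mx1, Mx2, Usp18 and Ifi27 were at most 2.48 CPM.

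**Figure D1:**
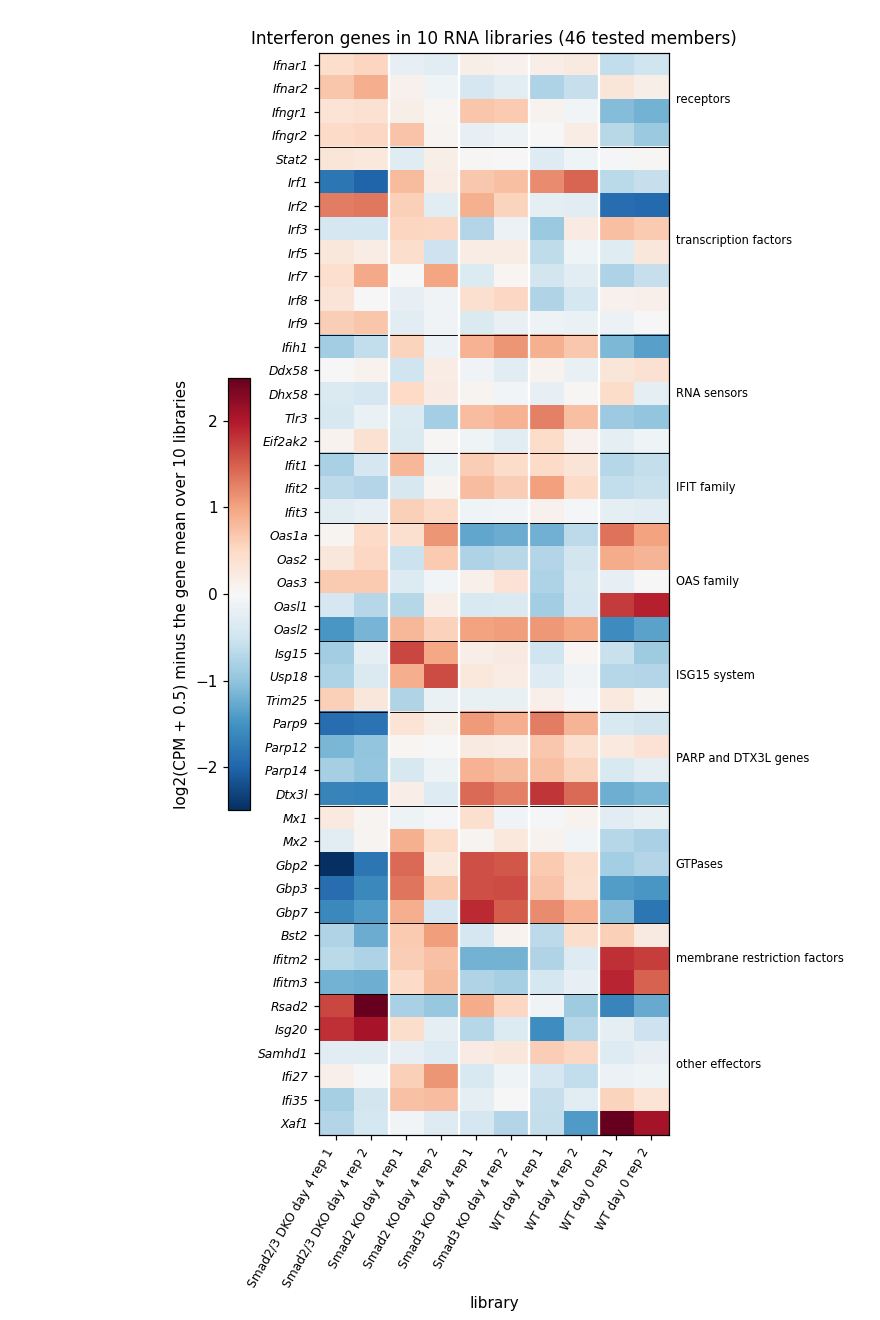
Levels of the 46 tested members in each of the 10 libraries, as log2(CPM + 0.5) minus the gene's mean over all libraries, with members in rows by role and libraries in columns. Irf1, the Gbp genes, Parp9 and Dtx3l are lowest or near lowest in the DKO columns, whereas Isg20, Rsad2, Irf2 and Irf9 are highest there, with Rsad2 at 4.53 and 8.58 CPM in DKO.

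The members did not move as 1 block in any comparison. In WT embryoid bodies at day 4 against stem cells at day 0, 21 of 46 members were called higher and 10 lower. Of all genes tested, 52.1% were called in that comparison, 28.9% higher and 23.2% lower, and the median log2 fold change was 0.80 for members and 0.10 for all genes. In DKO against WT at day 4, 9 members were called higher and 15 lower, against a background of 23.1% of genes called, 10.8% higher and 12.3% lower. The medians were -0.19 for members and -0.05 for all genes. In the Smad2 knockout against WT, 9 members were called higher and 9 lower (39.1% of members), beside 35.5% of all genes, 15.4% higher and 20.1% lower. Fewer members were called lower in the Smad2 knockout without WT day 4 replicate 1, and fewer were called higher in DKO without DKO replicate 2. The number of all genes called changed with the library left out as well. In the Smad3 knockout against WT no member was called by edgeR, beside 0.555% of all genes (0.431% higher and 0.123% lower). Of the members, 10 had an unadjusted p under 0.05 there, and DESeq2 called 4 higher and 1 lower. Without WT day 4 replicate 2 edgeR called some members higher, and it also called more of all genes. The 3 knockout comparisons share the WT day 4 libraries, so their values are given side by side and not compared as independent results.

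The scaling bears on several of these counts. On log2(TPM + 1) with limma the median of all genes moved to 0.63 between WT day 4 and day 0, -0.51 between the Smad2 knockout and WT, and 0.13 between DKO and WT. With 32 members tested on that scale, the calls were 19 higher and 4 lower in WT at day 4, 3 higher and 14 lower in the Smad2 knockout, and 8 higher and 12 lower in DKO. The member medians were 0.92, -0.52 and 0.04 in that order, and 19, 16 and 15 of the 32 lay above the median of all genes. The shares of all genes called given above belong to the edgeR test and not to this scale. The share of counts in ribosomal protein genes, which are short, was 14.37% and 13.65% in Smad2 knockout and 16.79% and 12.46% in WT day 0 libraries, against 5.96% to 8.35% elsewhere. Its part in these shifts was not tested. The calls for DKO against WT that held under each of the 22 alternatives that tested the gene were Irf2, Isg20, Oas3 and Ifnar2 (higher) and Irf1, Oasl2, Gbp2, Gbp3, Gbp7, Parp9, Parp12, Parp14, Dtx3l and Samhd1 (lower). Those for the Smad2 knockout were Oas1a and Ifi27 (higher) and Dtx3l and Tlr3 (lower).

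**Figure D2:**
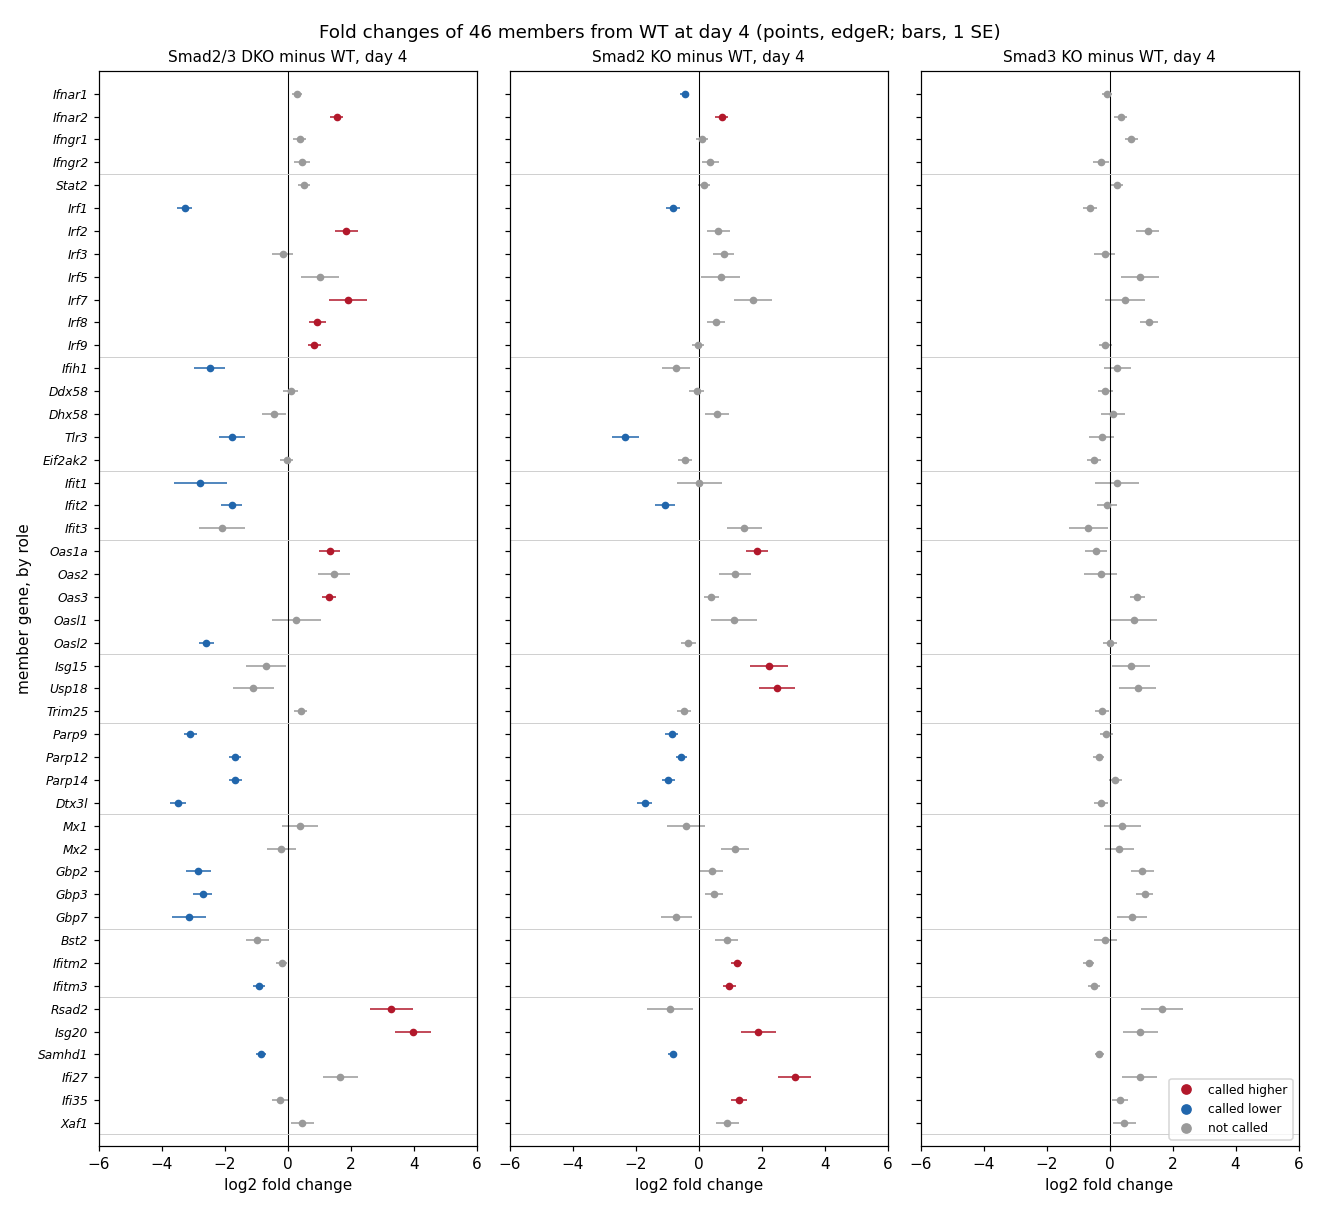
Log2 fold change of each tested member from WT at day 4 in DKO, Smad2 knockout and Smad3 knockout (points, edgeR; bars, 1 SE; colours, the call at an adjusted p under 0.05). Dtx3l, at -3.50, and Irf1, at -3.28, are the furthest to the left in DKO, Isg20, at 3.96, is the furthest to the right, and the Smad3 knockout panel holds no coloured point.

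Among the receptor genes, Ifnar2 was higher in DKO than in WT and the other 3 were not called in that comparison. Ifnar2 (chr16:91372783-91405589, mm10, plus strand), the signalling chain of the type I receptor, had 23.4 and 27.4 CPM in DKO, 15.4 and 13.3 in the Smad2 knockout, 10.5 and 11.8 in the Smad3 knockout, 8.14 and 9.37 in WT day 4 and 17.7 and 15.8 in WT day 0 libraries. DKO was the highest group, followed by WT stem cells, and the libraries of the 5 groups did not overlap. Its log2 fold change from WT was 1.54 in DKO (SE 0.2, adjusted p = 0.000748), 0.72 in the Smad2 knockout (SE 0.2, adjusted p = 0.0203) and 0.35 in the Smad3 knockout (SE 0.2, adjusted p = 0.385). The Smad2 knockout call was lost without its replicate 1 (0.61, adjusted p = 0.0815) and with an offset for transcript length and GC content (0.24, adjusted p = 0.234). In WT, Ifnar2 was lower at day 4 than at day 0, with a log2 value of -0.94 (SE 0.2, adjusted p = 0.00372), a call that the same offset ended (-0.36, adjusted p = 0.0554). Ifnar2 overlaps the read-through gene Gm21970 on the same strand, so its count is uncertain.

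Ifnar1 (chr16:91485238-91507441, plus strand), the other type I chain and a neighbour of Ifnar2, had 61.8 and 66.2 CPM in DKO, 39.4 and 37.7 in the Smad2 knockout, 50.7 and 49 in the Smad3 knockout, 51.4 and 53.8 in WT day 4 and 29.8 and 32.1 in WT day 0 libraries. The DKO libraries lay above and the Smad2 knockout libraries below those of WT at day 4. The log2 fold change was 0.28 in DKO (SE 0.15, adjusted p = 0.202), -0.45 in the Smad2 knockout (SE 0.15, adjusted p = 0.0409) and -0.08 in the Smad3 knockout (SE 0.15, adjusted p = 0.831). The Smad2 knockout call was lost without any 1 library other than WT day 4 replicate 2, with adjusted p between 0.0657 and 0.115, and turned direction with the length and GC offset (0.16). WT day 4 stood above WT day 0 by 0.77 (SE 0.15, adjusted p = 0.00247), and by -0.01 with that offset.

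The interferon gamma receptor genes were both higher in WT at day 4 than at day 0, and edgeR called neither against WT in any genotype. Ifngr1, the ligand-binding chain, had 10.3 and 10.7 CPM in DKO, 9 and 8.32 in the Smad2 knockout, 13.3 and 13 in the Smad3 knockout, 8.57 and 7.63 in WT day 4 and 3.53 and 3.27 in WT day 0 libraries. Its log2 fold change was 1.25 between day 4 and day 0 in WT (SE 0.2, adjusted p = 0.000976), 0.37 in DKO (adjusted p = 0.209), 0.10 in the Smad2 knockout (adjusted p = 0.726) and 0.69 in the Smad3 knockout (adjusted p = 0.136; 0.0485 by DESeq2). Ifngr2, the signalling chain, had 10.1 and 10.5 CPM in DKO, 12.1 and 7.57 in the Smad2 knockout, 6.13 and 6.54 in the Smad3 knockout, 7.09 and 8.15 in WT day 4 and 4.21 and 3.55 in WT day 0 libraries. It was higher in WT at day 4 by 0.97 (SE 0.27, adjusted p = 0.0131; 0.85 and adjusted p = 0.0866 without WT day 0 replicate 2). Its fold changes from WT were 0.44 in DKO (adjusted p = 0.264), 0.37 in the Smad2 knockout (adjusted p = 0.295) and -0.27 in the Smad3 knockout (adjusted p = 0.643), with 1 Smad2 knockout library above both WT libraries and the other between them.

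Of the 8 transcription factors, Irf1 fell in DKO and Irf2, Irf7, Irf8 and Irf9 rose. Irf1 (ENSMUSG00000018899.16, chr11:53770014-53778374, plus strand) encodes an activator that interferon gamma induces. It had 14 and 12.2 CPM in DKO, 87.9 and 57.2 in the Smad2 knockout, 80.8 and 85.5 in the Smad3 knockout, 115 and 139 in WT day 4 and 31.3 and 33.7 in WT day 0 libraries. The DKO libraries were the lowest of all 10, under those of WT stem cells. The log2 fold change from WT at day 4 was -3.28 in DKO (SE 0.24, adjusted p = 4.02e-05) and -0.81 in the Smad2 knockout (SE 0.22, adjusted p = 0.019), and it was not called in the Smad3 knockout. WT at day 4 exceeded WT at day 0 by 1.96 (SE 0.22, adjusted p = 0.000187). Without Smad2 knockout replicate 2 that knockout's change was -0.53 with an adjusted p of 0.0865.

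The 150 bases before the Irf1 start are shown because they hold the GAS core, TTC and GAA with any 3 bases between them, and Irf1 had the second largest fall of the members in DKO. The sequence is from RefSeq, build GRCm38.p6 (the mm10 build), chr11:53769864-53770013, plus strand, with the GAS core, which starts 90 bases before the gene, in capitals.
Irf1: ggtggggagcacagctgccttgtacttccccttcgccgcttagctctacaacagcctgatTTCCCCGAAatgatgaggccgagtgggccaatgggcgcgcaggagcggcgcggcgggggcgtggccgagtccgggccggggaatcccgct

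Irf2, a factor that can oppose IRF1 at the same sites, had 5.44 and 5.54 CPM in DKO, 3.18 and 1.54 in the Smad2 knockout, 4 and 3.08 in the Smad3 knockout, 1.55 and 1.5 in WT day 4 and 0.149 and 0.132 in WT day 0 libraries. The DKO libraries were the highest and the WT day 0 libraries the lowest. Its log2 fold change was 1.85 in DKO against WT (SE 0.36, adjusted p = 0.00634), and it was also called higher in WT at day 4 than at day 0. Irf9, the DNA-binding part of the type I complex, had 15.6 and 16.5 CPM in DKO, 8.31 and 9.45 in the Smad2 knockout, 7.71 and 8.76 in the Smad3 knockout, 9.15 and 8.89 in WT day 4 and 9.02 and 10.1 in WT day 0 libraries. Apart from DKO the groups overlapped with their neighbours in level. The DKO change was 0.83 (SE 0.2, adjusted p = 0.0144), with adjusted p = 0.0752 without DKO replicate 1 and 0.097 without DKO replicate 2. Irf9 overlaps Rnf31 on the same strand, and the count of either may hold reads of the other.

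Irf7, an amplifier of type I interferon production, had 0.914 and 1.53 CPM in DKO, 0.556 and 1.6 in the Smad2 knockout, 0.333 and 0.592 in the Smad3 knockout, 0.274 and 0.38 in WT day 4 and 0.12 and 0.211 in WT day 0 libraries. The change in DKO was 1.89 (SE 0.6, adjusted p = 0.0493), and it was not called without any 1 WT, Smad3 knockout or DKO library, with adjusted p between 0.0669 and 0.249. In the Smad2 knockout it was 1.72 (SE 0.6, adjusted p = 0.0507), where the 2 libraries differed widely. Irf8, a factor best known from myeloid cells, overlaps Gm20388 on the same strand, so its count is uncertain. It was called higher in DKO at 3.55 and 2.74 CPM, against 1.42 and 1.88 CPM in WT at day 4. That call was lost under 11 of the 22 alternatives, among them leaving out DKO replicate 1 (adjusted p = 0.24), DKO replicate 2 (0.0808), WT day 4 replicate 1 (0.111) or any 1 Smad3 knockout or WT day 0 library (0.0671 to 0.0856).

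Stat2, the partner of IRF9, had 37.8 and 36.9 CPM in DKO, 24.7 and 33.6 in the Smad2 knockout, 31.2 and 30.5 in the Smad3 knockout, 24.4 and 28.2 in WT day 4 and 29.4 and 31.3 in WT day 0 libraries. The change in DKO was 0.51 (SE 0.19, adjusted p = 0.0827), which DESeq2 called (0.56, adjusted p = 0.0387). It was 0.15 in the Smad2 knockout (adjusted p = 0.56) and 0.23 in the Smad3 knockout (adjusted p = 0.568). Irf3, which is activated by phosphorylation in infected cells, was called lower in WT at day 4 than at day 0, at -0.97 on the log2 scale (SE 0.34, adjusted p = 0.0375). Its WT day 4 libraries held 11.2 and 25.2 CPM, against 36.8 and 34.4 CPM at day 0. The call was lost under 13 of the 22 alternatives. The change was 0.00 with the length and GC offset (adjusted p = 1), -0.34 on the log2(TPM + 1) scale (adjusted p = 0.325) and -0.54 without WT day 4 replicate 1 (adjusted p = 0.0824), and leaving out any 1 WT day 0, DKO or Smad2 knockout library gave adjusted p between 0.0571 and 0.136. Irf3 overlaps Bcl2l12 on the opposite strand, and the sources used here do not state if reads were counted by strand. Irf5 was under 1.2 CPM in every library and was called in no comparison.

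The guanylate-binding proteins, large GTPases that act on membranes of intracellular pathogens, all fell in DKO. Gbp7, Gbp3 and Gbp2 lie in that order on chromosome 3, at chr3:142530342-142550149, chr3:142560026-142573209 and chr3:142620602-142638008, all on the plus strand. Gbp2 had 2.53 and 4.55 CPM in DKO, 46.9 and 20.7 in the Smad2 knockout, 53.3 and 51.1 in the Smad3 knockout, 27.4 and 23.4 in WT day 4 and 9.26 and 10.2 in WT day 0 libraries. DKO was below every other library and the Smad3 knockout above every other library. Gbp3 had 1.06 and 1.41 CPM in DKO, 14.1 and 8.66 in the Smad2 knockout, 17.3 and 17.6 in the Smad3 knockout, 9.08 and 7.16 in WT day 4 and 1.7 and 1.63 in WT day 0 libraries. Gbp7 had 0.706 and 0.881 CPM in DKO, 6.41 and 2.26 in the Smad2 knockout, 13 and 9.99 in the Smad3 knockout, 7.87 and 6.28 in WT day 4 and 1.25 and 0.553 in WT day 0 libraries. For these 2 genes the DKO libraries lay at or near the level of WT stem cells.

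The log2 fold change in DKO was -2.85 for Gbp2 (SE 0.4, adjusted p = 0.00113), -2.71 for Gbp3 (SE 0.3, adjusted p = 0.000377) and -3.15 for Gbp7 (SE 0.54, adjusted p = 0.0031). In WT, day 4 exceeded day 0 by 1.38 for Gbp2 (SE 0.38, adjusted p = 0.0129), 2.28 for Gbp3 (SE 0.3, adjusted p = 0.00036) and 2.97 for Gbp7 (SE 0.54, adjusted p = 0.00177). The Gbp2 call between days was lost without WT day 0 replicate 1 (adjusted p = 0.0813) or replicate 2 (adjusted p = 0.0551). In the Smad2 knockout none of the 3 was called. In the Smad3 knockout both libraries lay above both WT day 4 libraries for each of the 3 genes, and edgeR called none. DESeq2 called Gbp3 there, with a log2 fold change of 1.13 (adjusted p = 0.0157). The Gbp genes have near copies in the mouse genome between which RSEM has to divide reads, so the split among them is uncertain. Gbp7 also overlaps Gm43802 on the same strand. The other GTPases, Mx1 and Mx2, were at most 1.3 CPM in any library and were called against WT in no genotype. GENCODE lists Mx2 as a polymorphic pseudogene. Mx2 was called higher in WT at day 4, with 0.526 and 0.428 CPM, against 0.0896 and 0.0527 CPM at day 0.

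Bases upstream of each Gbp gene are shown because all 3 genes fell in DKO and each window holds an ISRE core, here TTTC, any 2 bases and TTTC again, or its reverse complement, GAAA, any 2 bases and GAAA. Isg15, a response gene that was not called in DKO, and Rsad2, a member that rose there, are shown beside them. The sequences are from RefSeq, build GRCm38.p6, read on the strand of the gene, with the ISRE cores in capitals. They cover chr3:142530186-142530335 for Gbp7, chr3:142559894-142560025 for Gbp3, chr3:142620513-142620613 for Gbp2, chr4:156200819-156200968 (minus strand) for Isg15 and chr12:26456453-26456602 (minus strand) for Rsad2. The gene positions given above are those of GENCODE, and the RefSeq starts differ from them by 61 bases for Gbp2, 18 for Gbp3 and 6 for Gbp7, while those of Isg15, Rsad2 and Irf1 are the same. The first core starts 53, 45 and 59 bases before the RefSeq start of Gbp7, Gbp3 and Gbp2. Counted from the GENCODE start it lies 59 bases before Gbp7 and 27 before Gbp3, but 2 bases past the start of Gbp2, so the last 12 bases shown for Gbp2 are inside the gene as GENCODE places it. The cores of the 3 Gbp genes read in the same direction, whereas Isg15 holds 3 overlapping cores in the other direction.
Gbp7: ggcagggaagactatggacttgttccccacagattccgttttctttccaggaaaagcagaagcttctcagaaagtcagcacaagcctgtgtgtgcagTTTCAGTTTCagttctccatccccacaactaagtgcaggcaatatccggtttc
Gbp3: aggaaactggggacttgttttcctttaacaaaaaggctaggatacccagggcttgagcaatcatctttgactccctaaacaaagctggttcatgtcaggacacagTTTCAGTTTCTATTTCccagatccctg
Gbp2: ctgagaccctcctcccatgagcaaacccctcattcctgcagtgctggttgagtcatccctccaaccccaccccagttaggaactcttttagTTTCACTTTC
Isg15: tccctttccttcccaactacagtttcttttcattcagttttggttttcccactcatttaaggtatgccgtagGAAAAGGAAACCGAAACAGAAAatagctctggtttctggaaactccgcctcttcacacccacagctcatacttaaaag
Rsad2: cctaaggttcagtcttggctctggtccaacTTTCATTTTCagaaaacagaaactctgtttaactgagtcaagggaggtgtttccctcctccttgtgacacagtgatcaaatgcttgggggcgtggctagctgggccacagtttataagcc

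The 4 PARP and DTX3L genes all fell in DKO. They were also called lower in the Smad2 knockout, but with the length and GC offset the Dtx3l call alone remained there, with Parp9 at -0.38 (adjusted p = 0.0645) and Parp12 at -0.09 (adjusted p = 0.62). Parp9 (chr16:35938470-35972605, plus strand) and Dtx3l (chr16:35926511-35939151, minus strand) encode partners of 1 ubiquitin ligase complex, and Parp14, an ADP-ribosyltransferase, lies in the same region at chr16:35832874-35871544. Dtx3l had 2.97 and 2.88 CPM in DKO, 11.8 and 8.28 in the Smad2 knockout, 28.6 and 25.9 in the Smad3 knockout, 37.5 and 28.7 in WT day 4 and 4.24 and 4.45 in WT day 0 libraries. No neighbouring groups in that order overlapped, though Smad3 knockout and WT day 4 were close. Its log2 fold change was -3.50 in DKO (SE 0.25, adjusted p = 3.99e-05) and -1.72 in the Smad2 knockout (SE 0.23, adjusted p = 0.00136), and it was not called in the Smad3 knockout. WT at day 4 exceeded WT at day 0 by 2.93 (SE 0.24, adjusted p = 4.93e-05).

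Parp9 had 3.94 and 4.13 CPM in DKO, 20.4 and 17.8 in the Smad2 knockout, 34.1 and 30.8 in the Smad3 knockout, 40 and 29.4 in WT day 4 and 12.2 and 11.5 in WT day 0 libraries. The DKO level was the lowest, below WT stem cells. The change was -3.10 in DKO (SE 0.21, adjusted p = 3.5e-05) and -0.86 in the Smad2 knockout (SE 0.2, adjusted p = 0.0102). The Smad2 knockout call was lost without WT day 4 replicate 1 (-0.56, adjusted p = 0.0557) and without Smad2 knockout replicate 2 (adjusted p = 0.0501). Between days in WT the change was 1.56 (SE 0.2, adjusted p = 0.000334). Parp9 and Dtx3l overlap at their 5′ ends on opposite strands, so reads there cannot be told apart if counting ignored strand.

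Parp14 had 4.15 and 3.76 CPM in DKO, 5.75 and 7.08 in the Smad2 knockout, 14.6 and 13.9 in the Smad3 knockout, 13.4 and 11.7 in WT day 4 and 5.89 and 6.5 in WT day 0 libraries. DKO was again the lowest group, and the Smad2 knockout overlapped with WT stem cells. It was called lower in DKO, and its change in the Smad2 knockout was -0.97 (SE 0.21, adjusted p = 0.0085). With the length and GC offset the Smad2 knockout value was 0.21 (adjusted p = 0.337), and that of WT day 4 against day 0 was -0.46 (adjusted p = 0.032), where edgeR without the offset gave 1.02. Parp12, which acts on viral translation, had 6.13 and 6.84 CPM in DKO and 14.5 and 13.9 in the Smad2 knockout, against 22.8 and 18.8 in WT at day 4. Its change was -1.68 in DKO (SE 0.19, adjusted p = 0.000382) and -0.55 in the Smad2 knockout (SE 0.18, adjusted p = 0.0441), the second of which was lost without any 1 library other than WT day 4 replicate 2, with adjusted p between 0.0721 and 0.233.

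**Figure D3:**
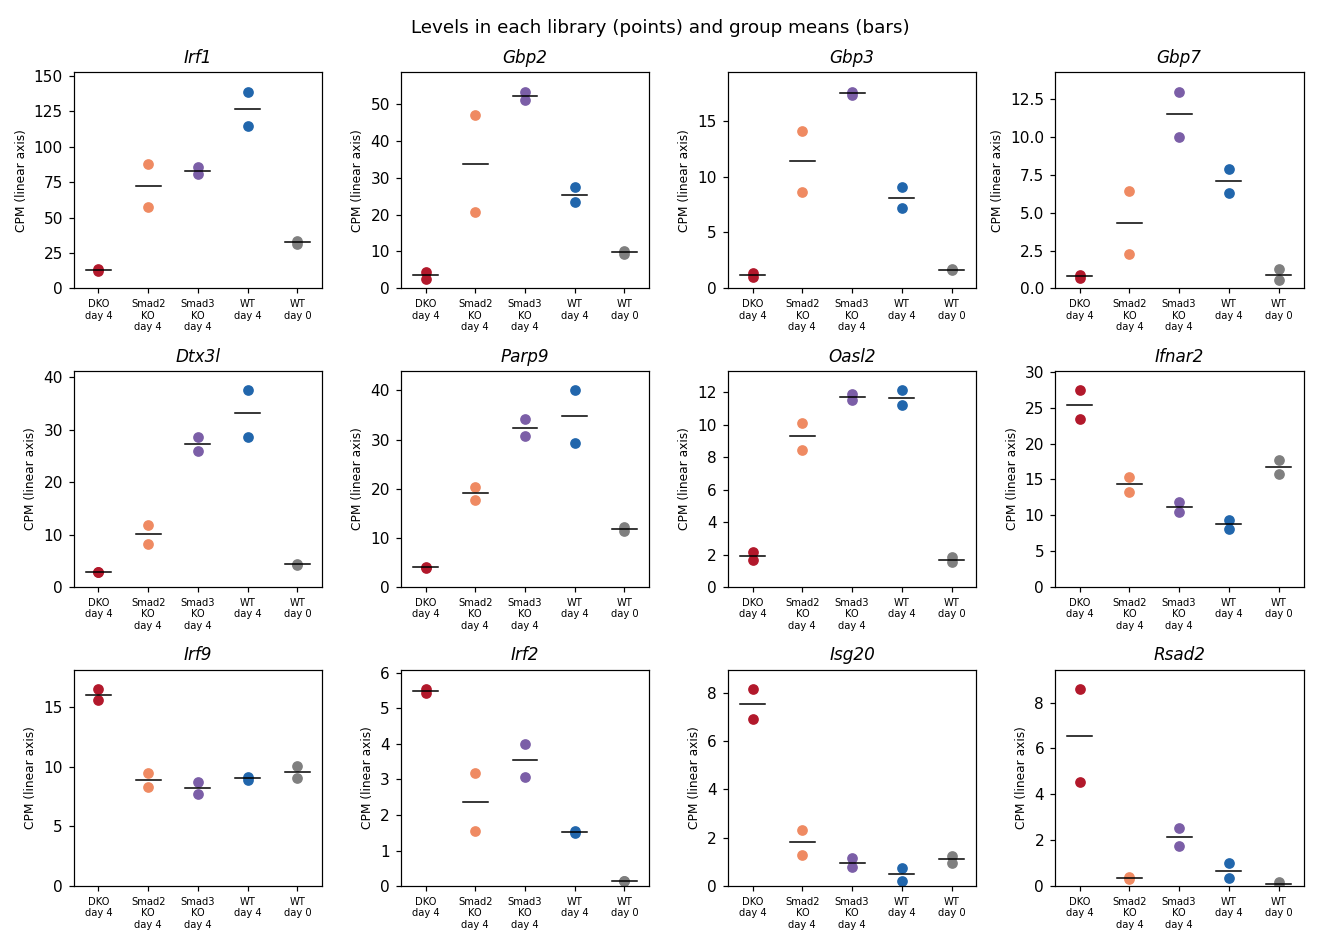
CPM of 12 members in each library (points) and the group mean (bars), on linear axes that start at 0, with DKO, Smad2 knockout, Smad3 knockout and WT at day 4 and WT at day 0 from left to right. Irf1 is at 14 and 12.2 CPM in DKO, against 115 and 139 in WT at day 4, while Isg20 is at 6.89 and 8.14 CPM in DKO, against 0.206 and 0.761 in WT at day 4.

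Of the 5 RNA sensors, Ifih1 and Tlr3 fell in DKO and the other 3 were not called. Ifih1, which encodes the sensor MDA5 of long double-stranded RNA, had 0.27 and 0.418 CPM in DKO, 1.59 and 0.768 in the Smad2 knockout, 2.09 and 2.54 in the Smad3 knockout, 2.13 and 1.76 in WT day 4 and 0.149 and 0.0527 in WT day 0 libraries. Tlr3, the endosomal sensor, had 0.644 and 0.835 CPM in DKO, 0.688 and 0.341 in the Smad2 knockout, 2.07 and 2.25 in the Smad3 knockout, 3.09 and 2.04 in WT day 4 and 0.299 and 0.263 in WT day 0 libraries. Tlr3 was called lower in both DKO and the Smad2 knockout, and both genes were called higher in WT at day 4 than at day 0. The DKO calls were lost without DKO replicate 1 for Ifih1 (adjusted p = 0.0699) and Tlr3 (adjusted p = 0.104), and that of Tlr3 also without DKO replicate 2 (adjusted p = 0.0588) or WT day 4 replicate 1 (adjusted p = 0.06). Ddx58, which encodes RIG-I, ranged from 13.7 to 25.4 CPM over all libraries, and the kinase gene Eif2ak2 from 17 to 30.5 CPM. Neither of them, nor Dhx58, was called in any of the 7 comparisons.

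The IFIT genes, whose proteins bind viral RNA ends, were all called higher in WT at day 4 than at day 0, and Ifit1 and Ifit2 were called lower in DKO than in WT. Between days the Ifit2 call held under each alternative. The Ifit1 call was lost without WT day 0 replicate 1 (adjusted p = 0.107) or replicate 2 (0.0653) and without WT day 4 replicate 1 (0.0513). The Ifit3 call was lost under 9 of the 22 alternatives, among them DESeq2 (adjusted p = 0.185) and leaving out any 1 of the 4 WT libraries (0.0502 to 0.171), either Smad3 knockout library (0.0652 and 0.0653) or DKO replicate 2 (0.0502). Ifit2 had 1.33 and 1.23 CPM in DKO, 1.69 and 2.5 in the Smad2 knockout, 4.44 and 3.9 in the Smad3 knockout, 5.37 and 3.52 in WT day 4 and 1.37 and 1.47 in WT day 0 libraries. Ifit1 had 0.0208 and 0.186 CPM in DKO, 1.14 and 0.32 in the Smad2 knockout and 0.91 and 0.765 in the Smad3 knockout, against 0.777 and 0.642 in WT at day 4. The Ifit1 call in DKO was lost under 7 of the 22 alternatives, among them leaving out DKO replicate 1 (adjusted p = 0.205) or any 1 WT day 0, Smad3 knockout or first WT day 4 library (adjusted p from 0.06 to 0.0935). Ifit2 was also called lower in the Smad2 knockout, but not without its replicate 1 (adjusted p = 0.116), WT day 4 replicate 1 (0.173), or Smad3 knockout replicate 1 (0.051) or replicate 2 (0.0504). Ifit3 was at most 0.183 CPM in WT and 0.45 CPM in the Smad2 knockout, and was not called against WT in any knockout.

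The OAS and OAS-like genes include synthetases of a messenger that starts RNA decay. They split in DKO: Oas1a and Oas3 rose, Oasl2 fell, and Oas2 and Oasl1 were not called. Oas1a (chr5:120896256-120907521, minus strand) had 6.46 and 8.81 CPM in DKO, 8.29 and 13.8 in the Smad2 knockout, 2.2 and 2.32 in the Smad3 knockout, 2.38 and 3.73 in WT day 4 and 16.6 and 12.9 in WT day 0 libraries. WT stem cells and both Smad2-deficient genotypes lay above the other groups. The change was 1.32 in DKO (SE 0.33, adjusted p = 0.0197) and 1.85 in the Smad2 knockout (SE 0.34, adjusted p = 0.00406). The DKO call was lost without DKO replicate 2 (1.08, adjusted p = 0.135) or WT day 4 replicate 1 (1.09, adjusted p = 0.0601). WT at day 4 was below WT at day 0, at -2.27 on the log2 scale (SE 0.34, adjusted p = 0.000704).

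Oas3, the largest of the synthetases, had 15.3 and 15.4 CPM in DKO, 7.41 and 9.03 in the Smad2 knockout, 10.5 and 12.4 in the Smad3 knockout, 5.37 and 7.11 in WT day 4 and 8.25 and 9.58 in WT day 0 libraries. DKO was the highest group and did not overlap with any other, and the change from WT was 1.30 (SE 0.23, adjusted p = 0.00375). Oasl2, an OAS-like gene, had 1.68 and 2.18 CPM in DKO, 10.1 and 8.43 in the Smad2 knockout, 11.5 and 11.9 in the Smad3 knockout, 12.1 and 11.2 in WT day 4 and 1.52 and 1.87 in WT day 0 libraries. The libraries fell into a low set, DKO and WT stem cells, and a high set, the other day 4 groups. The change was -2.59 in DKO (SE 0.25, adjusted p = 0.000163) and 2.77 between days in WT (SE 0.25, adjusted p = 6.91e-05). Oas2 and Oasl1 were called lower in WT at day 4 than at day 0. Oas2 had 0.549 and 0.761 CPM at day 4, against 2.78 and 2.61 CPM at day 0. Oasl1 had 0.0915 and 0.309 CPM at day 4, against 3.14 and 3.63 CPM at day 0. Oas1a, Oas2 and Oas3 lie near each other on chromosome 5, as do Oasl1 and Oasl2 at another place on it. How RSEM divided reads among similar members of the family was not tested, and their counts are uncertain to that extent.

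Isg15 and Usp18, a ubiquitin-like modifier and the protease that removes it, were called higher than WT in the Smad2 knockout and were not called in DKO or the Smad3 knockout. Isg15 had 0.166 and 0.533 CPM in DKO, 3.39 and 1.9 in the Smad2 knockout, 0.866 and 0.938 in the Smad3 knockout, 0.366 and 0.761 in WT day 4 and 0.329 and 0.158 in WT day 0 libraries. The Smad2 knockout libraries were the highest, at a level that was still low. The log2 fold change was -0.69 in DKO (SE 0.63, adjusted p = 0.475), 2.22 in the Smad2 knockout (SE 0.6, adjusted p = 0.0191) and 0.68 in the Smad3 knockout (SE 0.6, adjusted p = 0.603). The Smad2 knockout call was lost without its replicate 1 (1.75, adjusted p = 0.0938), without WT day 4 replicate 1 (1.86, adjusted p = 0.0833) and with the length and GC offset (1.26, adjusted p = 0.107). Usp18 had 0.0623 and 0.255 CPM in DKO, 1.32 and 2.48 in the Smad2 knockout and 0.666 and 0.592 in the Smad3 knockout, against 0.274 and 0.404 in WT at day 4, and its Smad2 knockout call was lost without that knockout's replicate 2 (adjusted p = 0.0527). Tested directly, DKO was below the Smad2 knockout for Isg15 at -2.92 on the log2 scale (SE 0.62, adjusted p = 0.00646; 0.0514 without DKO replicate 1), and Usp18 was called lower as well. Trim25, a ubiquitin ligase that acts on RIG-I, was called against WT in no genotype, at 165 and 134 CPM in DKO, 64.9 and 97.9 in the Smad2 knockout and 95.7 and 95.8 in the Smad3 knockout, against 119 and 107 CPM in WT at day 4.

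The membrane restriction factors are IFITM2 and IFITM3, which block virus entry, and tetherin, encoded by Bst2. Ifitm3 (chr7:141009586-141010770, minus strand) had 11 and 10.7 CPM in DKO, 35.9 and 44.6 in the Smad2 knockout, 15 and 14.2 in the Smad3 knockout, 18.9 and 22.2 in WT day 4 and 97.7 and 72.6 in WT day 0 libraries. The 5 groups followed each other without overlap, WT stem cells the highest and DKO the lowest. The change from WT was -0.92 in DKO (SE 0.2, adjusted p = 0.0108), 0.97 in the Smad2 knockout (SE 0.2, adjusted p = 0.00675) and -0.49 in the Smad3 knockout (SE 0.2, adjusted p = 0.253). The DKO call was lost without DKO replicate 1 (adjusted p = 0.0755) or replicate 2 (adjusted p = 0.0844). The Smad2 knockout value was 0.29 on the log2(TPM + 1) scale (adjusted p = 0.196) and 0.00 with the length and GC offset (adjusted p = 0.994). In WT, day 4 was below day 0 at -2.05 on the log2 scale (SE 0.21, adjusted p = 0.000108).

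Ifitm2 had 93 and 87.5 CPM in DKO, 230 and 247 in the Smad2 knockout, 65.5 and 65.6 in the Smad3 knockout, 88.4 and 119 in WT day 4 and 528 and 496 in WT day 0 libraries. DKO overlapped with WT at day 4, and the Smad2 knockout lay between WT at day 4 and WT stem cells. It was called higher in the Smad2 knockout by 1.20 (SE 0.18, adjusted p = 0.00185), a change of 0.02 with the length and GC offset (adjusted p = 0.908), and lower in WT at day 4 than at day 0 (-2.31, SE 0.18, adjusted p = 3.97e-05). Ifitm2 and Ifitm3 are near copies, and Ifitm2 overlaps Gm45717 on the same strand, so its count is uncertain. Bst2 had 59.9 and 42.2 CPM in DKO, 159 and 210 in the Smad2 knockout, 75.8 and 108 in the Smad3 knockout, 63.7 and 137 in WT day 4 and 153 and 118 in WT day 0 libraries, and was called against WT in no genotype.

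The remaining effectors held the largest gains of DKO. Isg20 (chr7:78913424-78920396, plus strand), an exonuclease of single-stranded RNA, had 6.89 and 8.14 CPM in DKO, 2.33 and 1.28 in the Smad2 knockout, 0.777 and 1.14 in the Smad3 knockout, 0.206 and 0.761 in WT day 4 and 1.25 and 0.948 in WT day 0 libraries. DKO stood above all other libraries, and the change from WT was 3.96 (SE 0.57, adjusted p = 0.00135). Isg20 was also called higher than WT in the Smad2 knockout, but not without its replicate 1 (adjusted p = 0.133) or WT day 4 replicate 1 (adjusted p = 0.0767). Rsad2, which encodes viperin, had 4.53 and 8.58 CPM in DKO, 0.397 and 0.32 in the Smad2 knockout, 2.51 and 1.75 in the Smad3 knockout, 0.983 and 0.357 in WT day 4 and 0 and 0.158 in WT day 0 libraries. The change in DKO was 3.28 (SE 0.68, adjusted p = 0.00817), and 2.75 without DKO replicate 2 (adjusted p = 0.0654).

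Samhd1, a nucleotide hydrolase that limits viral DNA synthesis, had 61.3 and 61.8 CPM in DKO, 65.4 and 59.8 in the Smad2 knockout, 86.9 and 91.7 in the Smad3 knockout, 115 and 108 in WT day 4 and 59.8 and 65.5 in WT day 0 libraries. DKO, Smad2 knockout and WT stem cells overlapped at the lower level. It was called lower in the Smad2 knockout, by -0.83 (SE 0.15, adjusted p = 0.0036), and in DKO, and higher in WT at day 4 than at day 0. Xaf1, a gene linked to cell death, had 2.68 and 1.31 CPM in WT day 4, against 29.9 and 19.9 CPM in WT day 0 libraries, a change of -3.64 (SE 0.39, adjusted p = 0.000143). No genotype was called against WT for Xaf1, with DKO at 2.41 and 3.06 CPM. Ifi35 had 9.16 and 9.43 CPM in the Smad2 knockout, against 3.38 and 4.3 CPM in WT at day 4, a change of 1.27 (SE 0.26, adjusted p = 0.00615) that the log2(TPM + 1) scale (0.52, adjusted p = 0.0683) and the length and GC offset (0.44, adjusted p = 0.161) did not call. Ifi27 was called higher in the Smad2 knockout at 0.874 and 1.45 CPM, against 0.183 and 0.0951 CPM in WT at day 4.

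In the direct contrasts between genotypes, DKO was below the Smad2 knockout for 21 members and above it for 8, against 39.6% of all genes called, 19.1% lower and 20.5% higher. Fewer members were called in both directions without DKO replicate 1, and fewer were called higher without DKO replicate 2. Without DKO replicate 2 fewer of all genes were called as well. On the log2(TPM + 1) scale, where the median of all genes was 0.65, the split was 13 higher and 9 lower. Members had a median of 0.23 there, and 13 of the 32 tested lay above the median of all genes. The lower calls that held under each alternative that tested the gene were Irf1, Ifit3, Usp18, Oasl2, Ifitm3, Gbp2, Gbp3 and Parp9, with Gbp2 at -3.26 (SE 0.4, adjusted p = 0.000737) and Irf1 at -2.47 (SE 0.23, adjusted p = 0.0003). Rsad2 was the higher call that held, at 4.19 (SE 0.73, adjusted p = 0.00264). DKO was below the Smad3 knockout for 14 members and above it for 4, against 15.5% of all genes called (8.01% lower and 7.53% higher), and 10 lower and 5 higher on the log2(TPM + 1) scale. On that scale the median was -0.19 for members and 0.09 for all genes. Irf1 (-2.67), Gbp2 (-3.88), Gbp3 (-3.82), Gbp7 (-3.85), Parp9 (-3.01), Dtx3l (-3.22) and Oasl2 (-2.60) were among the 9 lower calls that held under each alternative. None of the 4 higher calls, Isg20, Oas1a, Ifnar2 and Irf9, did so. Fewer members were called higher without any 1 Smad3 knockout library or DKO replicate 2, and more without any 1 WT day 4 or Smad2 knockout library. Without DKO replicate 1 fewer were called lower. Calls over all genes were fewest without DKO replicate 2 and most without WT day 4 replicate 1.

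The Smad2 knockout was above the Smad3 knockout for 7 members and below it for 8, against 33.6% of all genes called, 15.7% higher and 17.9% lower. Fewer members were called in both directions without any 1 Smad3 knockout library or Smad2 knockout replicate 2. More were called higher without any 1 WT day 4 library, and fewer were called lower without any 1 DKO library. Calls over all genes were fewest without Smad3 knockout replicate 1 and most without WT day 4 replicate 1. On the log2(TPM + 1) scale, where the median of all genes was -0.57, the split was 3 higher and 20 lower. Members had a median of -0.89 there, and 12 of the 32 tested lay above the median of all genes. Oas1a (2.29, SE 0.34, adjusted p = 0.00257), Ifitm2 (1.86, SE 0.18, adjusted p = 0.000975) and Ifitm3 (1.46, SE 0.2, adjusted p = 0.00206) were higher and Dtx3l (-1.44, SE 0.23, adjusted p = 0.00302) and Tlr3 lower under each alternative that tested them. The file names fall into 2 series, which the labels do not describe as a batch. The first holds replicate 1 of each group and both DKO libraries. Taken 1 library against 1 within each series, the 9 higher and 9 lower members of the Smad2 knockout against WT, and the 21 and 10 of WT day 4 against day 0, kept their direction in both series. Those members were called from these same libraries, so the agreement was largely fixed in advance and is no separate check. For DKO no library lies in the second series, and with the series as a block 12 members were called higher and 15 lower against WT.

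An ISRE core was common in the members' promoters, among those that rose in DKO and those that fell. Of 39 members with an entry in the RefSeq promoter table (250 bases before to 50 after each start), 17 or 43.6% held it on either strand (95% Wilson interval 29.3 to 59.0%), against 3.99% of 27025 genes in the table. On the gene's own strand, as the TTTC form alone, the share was 20.5%, against 1.96% of genes. A GAS core was found in 35.9% of members (22.7 to 51.6%) and 9.55% of genes. Some ISRE matches overlap each other, as in Isg15, Bst2, Oas1a and Gbp3, and the members were picked as known response genes, so a high share is a description of the choice. In DKO against WT, 4 of 17 tested members with an ISRE core were called higher and 6 lower, and the median change was -0.69 on the log2 scale, beside 10.8% of all genes called higher and 12.3% lower. Of 21 without one, 5 were called higher and 7 lower, and the median change was 0.28. In the Smad2 knockout 4 of the 17 were called higher and none lower, and of the 21 others 3 were called higher and 7 lower, beside 15.4% of all genes higher and 20.1% lower. The difference between these classes was not tested.

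**Figure D4:**
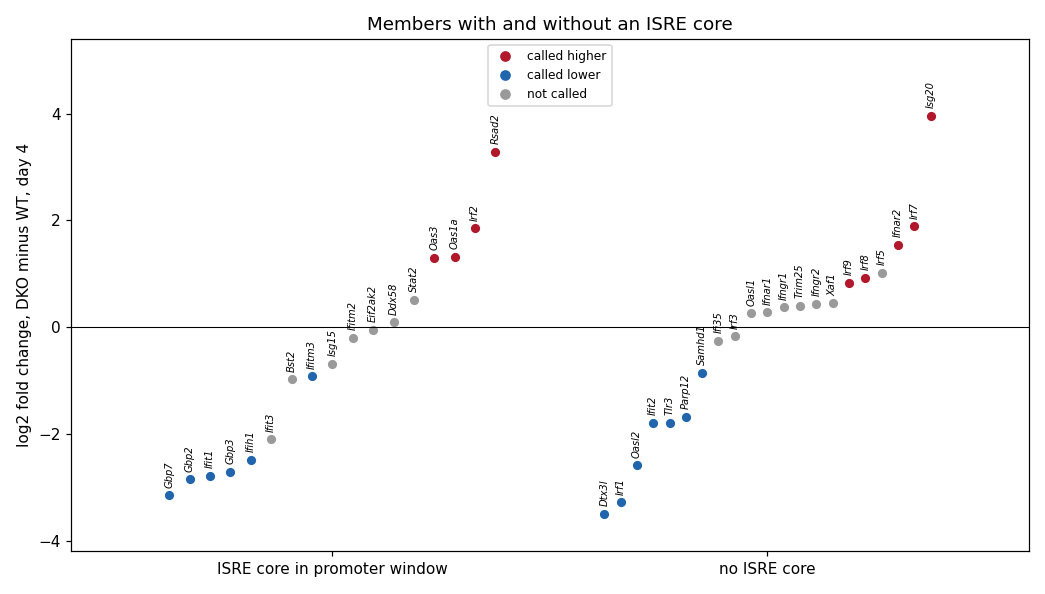
Log2 fold change of DKO against WT at day 4 for tested members with an ISRE core in the promoter window (left, 17 members) and without one (right, 21 members), sorted by value within each class and coloured by call. Both classes span a wide range, -3.15 to 3.28 with a core and -3.50 to 3.96 without.

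Genes of the pathway outside the 47 also split in DKO. Of 18 further interferon-stimulated genes, 8 were called lower and 2 higher, beside 12.3% of all genes lower and 10.8% higher in DKO against WT. Irgm1, an immunity-related GTPase, had 0.914 and 0.696 CPM in DKO, against 26.7 and 19.8 CPM in WT at day 4, a change of -4.84 on the log2 scale (SE 0.48, adjusted p = 0.000202). Igtp, another gene of that family, changed by -1.72 (SE 0.23, adjusted p = 0.000872) and Tor3a by -1.80 (SE 0.2, adjusted p = 0.000346). Of 7 JAK kinase and SOCS genes 3 were called higher (42.9% called, against 23.1% of all genes), among them the kinase Jak1 by 0.77 (SE 0.18, adjusted p = 0.0143) and the feedback inhibitor Socs3 by 1.70 (SE 0.43, adjusted p = 0.0188). Of 9 adaptors and kinases downstream of the sensors 4 were called higher and 1 lower (55.6% called). The adaptor Traf3 had 42.3 and 39.6 CPM in DKO, against 15.4 and 17.6 CPM in WT at day 4, a change of 1.31 (SE 0.17, adjusted p = 0.000779). The interferon lambda receptor genes Ifnlr1 and Il10rb were higher by 1.00 (SE 0.21, adjusted p = 0.00924) and 1.15 (SE 0.28, adjusted p = 0.0156).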

How the data were processed

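RNA was sequenced in 10 libraries. Groups and replicate numbers come from the labels; 14 chromatin immunoprecipitation samples were not analysed here. The authors deposited 1 RSEM table per library: the expected counts are estimated reads per gene, and per the file headers, each table also holds TPM, used here for levels between genes, and deposited FPKM, left unused. Tools listed by the submitters' processing notes, without role or order, are RSEM, STAR, Bowtie2, HOMER and FastQC 0.11.5, and the build listed is mm10; the sources used here give neither annotation version nor strand use.

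The rounded expected counts of all 5 groups entered 1 edgeR quasi-likelihood fit (edgeR 4.0.16, R 4.3.3, TMM factors, filterByExpr). This left 5 residual degrees of freedom and 19470 genes, and the common biological coefficient of variation was 0.248. Calls have a Benjamini-Hochberg adjusted p under 0.05. On simulated data shaped like the Smad2 knockout against WT, with 200 changed genes among 19470, the test called 84% of 4-fold and 10% of 2-fold changes. It also called 10 unchanged genes there. The changed genes of the simulation were drawn from those above 1 CPM in WT at day 4, so these shares do not describe members below that level. In the deposited data far more genes were called in that comparison, which makes the adjusted threshold less strict, and members with changes under 2-fold were called. Symbols and positions came from GENCODE M21 (mm10). Alternatives used DESeq2 1.42.0, limma 3.58.1 on log2(TPM + 1) and log2(TPM + 0.1), and an offset for length and GC content (mgcv 1.9.3).

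Fold changes with SE are printed for called members whose higher group reached 5 CPM, up to 8 per direction, for 9 fixed members (Ifnar1, Ifnar2, Ifngr1, Ifngr2, Stat2, Irf9, Irf7, Isg15, Ifitm3), and for up to 3 genes of each other list. Outside that rule, Gbp3 in the Smad3 knockout and Parp14 between days are given with values chosen after they were seen. Members and lists were chosen with earlier results of these data known. Some genes are not reported here.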

Additional observations from a re-analysis of the deposited data

Results flagged for a closer look

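Ifitm3 differed between DKO and the Smad2 knockout. Against WT at day 4 its log2 fold change was -0.92 in DKO and 0.97 in the Smad2 knockout, and neither call held under each alternative. The Smad2 knockout value was 0.00 with the length and GC offset (adjusted p = 0.994) and 0.29 on the log2(TPM + 1) scale (adjusted p = 0.196), and the DKO call was lost without DKO replicate 1 (adjusted p = 0.0755) or replicate 2 (adjusted p = 0.0844). The direct contrast of DKO with the Smad2 knockout gave -1.89 (SE 0.21, adjusted p = 0.00049). It does not compare WT libraries, but they are part of the fit that gave its SE and adjusted p. Both DKO libraries (11 and 10.7 CPM) lay below both Smad2 knockout libraries (35.9 and 44.6 CPM). The share of ribosomal protein genes in the counts was 7.01% and 6.38% in DKO and 14.37% and 13.65% in the Smad2 knockout, and its part in this difference was not tested.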

How the results depend on the processing

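Across 126 named results, 2754 values were recomputed under 22 alternatives. Of these, 2471 kept direction and call, 168 lost a call, 59 gained one and 56 changed sign, 6 of them called values. Where values changed, the cause was not tested. Levels under about 1 CPM rest on few counts.

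On the TPM scales (pseudocounts 1 and 0.1), members called were 4 and 4 lower in WT day 4 against day 0; 3 and 2 higher and 14 and 14 lower in the Smad2 knockout against WT; 3 and 3 higher and 20 and 19 lower in the Smad2 against the Smad3 knockout; and 13 and 13 higher and 9 and 9 lower in DKO against the Smad2 knockout. The shares of all genes called given in the results belong to the edgeR test and not to these scales. With pseudocount 0.1, 9 were lower in DKO against the Smad3 knockout, and 2743 (DKO against WT), 1694 (DKO against Smad3 knockout) and 54 (Smad3 knockout against WT) of all genes were called. Stat2 and Irf9 turned to 0.73, 0.81, 0.52 and 0.63 between days, Ifngr1, Ifngr2 and Stat2 to -0.53, -0.62, -0.63, -0.80, -0.77 and -0.85 in the Smad2 knockout, Ifnar1 and Irf9 to 0.02 in the Smad3 knockout, and Ifnar2, Ifngr2 and Irf9 to -0.32, -0.34, -0.37, -0.48, -0.52 and -0.62 in the Smad2 against the Smad3 knockout.

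With library totals alone, Stat2 and Irf9 were 0.08 and 0.20 between days, Ifngr1 and Stat2 -0.09 and -0.05 in the Smad2 knockout, Ifnar1 and Irf9 0.06 and 0.01 in the Smad3 knockout, and Irf9 -0.22 in the Smad2 against the Smad3 knockout, where 14 members were lower; 191 genes were called in the Smad3 knockout. With the length and GC offset, without and with the replicate block, 4 and 4 members were lower in the Smad2 knockout, 4 and 5 higher and 1 and 2 lower in the Smad3 knockout, and 8 and 9 higher in DKO against the Smad3 knockout. All genes called were then 1187 and 1263 (Smad3 knockout), 7038 and 7220 (DKO against WT) and 5375 and 5537 (DKO against Smad3 knockout). Under that offset Ifnar1 was -0.01 between days, Parp14 0.21, Ifnar1 0.16 and 0.17 and Irf9 0.02 in the Smad2 knockout, Ifnar1 0.02 and 0.03 in the Smad3 knockout, Ifnar1 0.14, Ifnar2 -0.21 and Stat2 0.23 in the Smad2 against the Smad3 knockout, and Ifngr2 -0.11 and -0.09 and Stat2 -0.01 and 0.00 in DKO against the Smad2 knockout.

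With the compared groups alone, genes called were 2461 (Smad2 knockout), 0 (Smad3 knockout), 2778 (DKO) and 6498 (DKO against Smad3 knockout); members were 5 higher and 2 lower in the Smad2 knockout and 11 higher in DKO against the Smad3 knockout, and Ifnar1 was 0.01 in the Smad3 knockout. Without a filter, 1096 genes and 3 members were called in the Smad3 knockout and 7 members were higher in DKO against it; DESeq2 gave 790 genes, 4 members higher and 1 lower, and 7. The file-name series as a block, added after seeing the data, gave 278 genes in the Smad3 knockout. On 1 strand the ISRE share was 20.5%.

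Replicate numbers were shared between groups, with no label that ties them and correlations of deviations from -0.18 to 0.51. With the replicate block, 11 members were higher and 8 lower in the Smad2 knockout, 10 and 15 in DKO, and 99 genes were called in the Smad3 knockout.

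Leaving out each library in turn, all genes called ranged over 6504 to 10979 between days, 4571 to 8864 in the Smad2 knockout, 3 to 2709 in the Smad3 knockout, 2126 to 6051 in DKO, 1898 to 8569 in the Smad2 against the Smad3 knockout, 3693 to 9485 in DKO against the Smad2 knockout and 1028 to 4409 in DKO against the Smad3 knockout. Members ranged over 5 to 10 lower in the Smad2 knockout, 0 to 3 higher in the Smad3 knockout, 4 to 12 higher in DKO, 3 to 11 higher and 3 to 10 lower in the Smad2 against the Smad3 knockout, 2 to 8 higher and 13 to 21 lower in DKO against the Smad2 knockout, and 0 to 7 higher and 9 to 15 lower in DKO against the Smad3 knockout. Values that crossed 0 were Ifngr2 (-0.01 to 0.66), Stat2 (-0.09 to 0.35) and Irf9 (-0.12 to 0.07) in the Smad2 knockout, Stat2 (-0.32 to 0.13) in the Smad2 against the Smad3 knockout, and Ifngr2 (-0.23 to 0.44) and Irf7 (-0.40 to 1.12) in DKO against the Smad2 knockout. The planned comparison of member proteins was not run.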

Other observations

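Outside DKO, the pathway genes beside the 47 moved as follows. In WT at day 4 against day 0, 9 of 18 further interferon-stimulated genes were called higher and 1 lower (55.6% called, near the 52.1% of all genes), and 4 of 7 JAK kinase and SOCS genes were called higher and 2 lower. In the Smad2 knockout against WT, 4 of the 18 were called lower and 1 higher (27.8% called, below the 35.5% of all genes). They included Rnf213, a large ubiquitin ligase, at 18.4 and 27.5 CPM in the Smad2 knockout, against 66 and 55.5 CPM in WT at day 4 (log2 fold change -1.41, SE 0.22, adjusted p = 0.00241), Znfx1 (-1.27, SE 0.29, adjusted p = 0.0102) and Helz2 (-1.24, SE 0.28, adjusted p = 0.0102). In the Smad3 knockout edgeR called no gene of the lists of 18, 7 and 9 genes.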
